A study of Mus musculus with 6 samples.

Results

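A transcript cluster is a set of array probe sets that the array maker placed on one stretch of the genome and one strand, and its level sums up the RNA copied from that stretch. The clusters described here are those for which the platform annotation gave no gene symbol, and 8398 of the 16383 rows in the value table were of this kind. Of these, 106 repeated the values of another such row exactly and were left out, so that 8292 clusters remained of 16216 rows compared. The sample labels played no part in choosing them. RNA came from Melan-a cells, pigmented melanocytes of C57BL/6 mice that grow without limit in culture, kept in medium with 10% serum and 200 nM of the phorbol ester TPA. They received 50 pmol of siRNA, either siDicer, which targets Dicer, or the control siScr, and were harvested after 24 hours. There were 3 arrays per group, 1 for each of passages 47, 54 and 56, so that the same replicate number stands for the same passage in both groups. All values are log2 signals of mouse Clariom D arrays.

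Dicer is the nuclease that cuts hairpin precursors into mature microRNAs, which in turn lower the stability and translation of their target messenger RNAs. Clusters without a gene name can come from unspliced introns, from transcripts that run past the end of a gene, from antisense or intergenic RNA, from copies of repeated sequence, or from stretches that are not transcribed in the cell studied. Which of these a given cluster is cannot be read from its level. Their position was known here only through their numbers, as described further on, and their sequences were not analysed here.

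The groups rest on the labels, since the gene for Dicer was not analysed here. Of the melanocyte markers, 4 were measured and all were strongly expressed: Tyrp1, the tyrosinase-related enzyme of melanin synthesis, stood at 12.85 and the melanocyte transcription factor Pax3 at 10.57. Fibroblast markers reached 7.19 at most and keratinocyte markers 6.81. Of the 7 immune markers measured, 5 lay above the background gauge defined below, with C1qa highest at 5.38. Ptprc, which defines blood-derived cells, was the lowest of them at 2.84. None of the markers of melanocytes, fibroblasts, keratinocytes or immune cells passed the threshold between groups. Of the 2 Schwann cell markers, Cdh19 was 0.55 higher and Pmp2 0.95 lower in siDicer. Summed immune markers lay between 7.28 and 7.43 in siDicer and between 7.52 and 7.55 in siScr, and their part in the results was not tested.

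Olfactory receptor genes, which are used by sensory neurons of the nose and are mostly silent elsewhere, served as a gauge of background. The 398 such rows had a median level of 2.76 over 6 arrays, and their 95th percentile was 4.15. This value is called the gauge below. Clusters without a symbol had a median of 4.11, and 4050 of them, or 48.8%, lay above the gauge. Among the 4304 rows of ordinary named genes the median was 6.23 and 81.9% lay above it. Predicted gene models, at 60.3%, and microRNA genes, at 52.6%, were nearer to the clusters without a symbol.

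**Figure D1:**
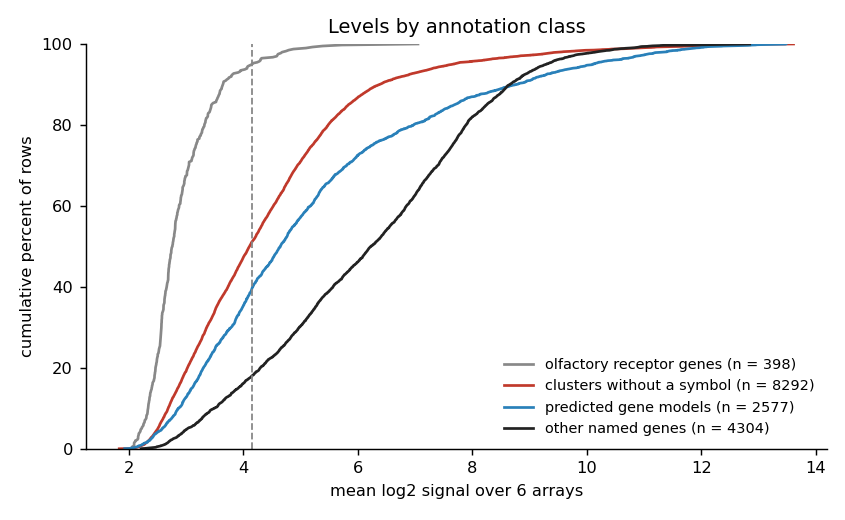
Cumulative percent of rows (y axis) by mean log2 signal over 6 arrays (x axis) for 4 annotation classes, with the 95th percentile of olfactory receptor genes as a dashed line. The curve of the 8292 clusters without a symbol runs between the olfactory receptor genes and the named genes, with a median of 4.11 against 2.76 and 6.23.

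The share above the gauge differed little between arrays. Measured against each array's own olfactory receptor genes it was 48.8, 49.0 and 50.7% in siDicer replicates 1, 2 and 3 and 48.6, 46.6 and 48.0% in the siScr replicates, a mean of 48.6 ± 1.32% (SD, n = 6). The siDicer array had the higher share in each pair, by less than 3 percentage points. It also had the lower olfactory receptor percentile in each pair, at 4.18, 4.14 and 4.06 against 4.20, 4.23 and 4.20, while the median of the clusters was lower in siDicer in 2 of the 3 pairs. By these separate percentiles 3670 clusters were above background in all 6 arrays and 3884 in none. Above it in all 3 siDicer arrays and in no siScr array were 15 clusters (0.181%), and 2 (0.0241%) the other way round. The same was not counted over all rows. The lower siDicer percentiles enter the count of clusters, and all 17 had means between 4.08 and 4.30, close to the gauge. Among them TC0200003534, at 4.34 against 3.97, passed the test described below.

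Levels also differed by the chromosome given in the cluster's identifier, which covers chromosomes 1 to 4 in this table. Above the gauge were 54.3% of the clusters on chromosome 4 and 52.0% on chromosome 2, against 44.1% on chromosome 1 and 43.6% on chromosome 3. At the top of the range 129 clusters, or 1.56%, exceeded a level of 10. The highest was TC0400000876, with 13.61, 13.64 and 13.58 in siDicer and 13.62, 13.63 and 13.59 in siScr. TC0400001746 followed at a mean of 13.53, TC0200002613 at 13.23, TC0200002916 at 13.15, TC0100002078 at 13.11 and TC0100003482 at 13.05. These exceed Tyrp1 in signal, although signals of different probes cannot be ranked as amounts of RNA.

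The next 4 of the 10 highest were nearly alike. TC0200003031, TC0400003365, TC0200003746 and TC0200003422 had means from 12.87 to 12.88, and each of them had 8 other clusters within 0.1 log2 units on every array. Those companions carried no symbol either and bore the numbers of 2 chromosomes. Above a level of 12, 28 of 39 clusters without a symbol had such a companion among themselves, and 2 of 9 named genes did. Between 8 and 10 it was 29.6% of 226 clusters against 55.8% of 676 named genes. The classes differed in number within these bands, which bears on these shares. Between 10 and 12, where they were nearly equal in number, it was 38.9% of 90 clusters against 23.1% of 91 named genes. Exact repeats were a related feature of the table: 153 rows without a symbol fell into 47 sets of identical values, the largest of 15 rows at a level of 7.41, and 6 of the sets held consecutive numbers. None of the 10 highest clusters passed the threshold between groups.

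In the comparison of siDicer with siScr, paired by replicate number, 56 of the 8292 clusters passed an adjusted p of 0.05, and 49 of these were higher in siDicer and 7 lower. Over all 16216 rows 0.974% passed, 0.734% upward and 0.241% downward, against 0.675%, 0.591% and 0.0844% of the clusters without a symbol. For rows with a symbol the shares were 1.29%, 0.883% and 0.404%. None of the 398 olfactory receptor genes passed in limma, with 34 at an unadjusted p under 0.05. A change of at least 1.5-fold was reached by 10 of the 56, which is 0.121% of the clusters, and by 37 of the 158 among all rows, which is 0.228%. The share that passed among clusters above the gauge was 1.31%, and 1.85% among rows with a symbol above it. Of the calls 87.5% were rises, and 75.3% over all rows. After quantile normalization this split over all rows was 46 rises to 29 falls and after cyclic loess 56 to 31, while in the clusters it was 15 to 3 and 19 to 4. Without the pairing 4 clusters passed, all among the 56, and 37 of all 16216 rows. Without replicate 2 or without replicate 3 none passed in limma, neither among the clusters nor over all rows. An unadjusted p under 0.05 was then reached by 1137 and 988 clusters and by 2176 and 1787 of all rows. Without replicate 1, 68 clusters and 135 of all rows passed.

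Over all 8292 clusters the median log2 change was -0.01, with medians of -0.01, 0.01 and -0.02 in the 3 pairs, against -0.01 over all rows. The middle 90% of changes ran from -0.18 to 0.24. Groups that did not overlap were found upward in 7.51% of clusters and 7.55% of all rows, and downward in 6.97% and 8.36%. Among rows with a symbol 9.82% did not overlap downward. A change of the same sign in all 3 pairs was seen upward in 16.7% of clusters, 17.5% of all rows and 18.4% of rows with a symbol, and downward in 17.9%, 22.7% and 27.7%. An unadjusted p under 0.05 was reached by 15.3% of clusters, 15.7% of all rows and 16.2% of rows with a symbol. The upward and unadjusted shares of the clusters were near the background, and the downward shares were below it.

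**Figure D2:**
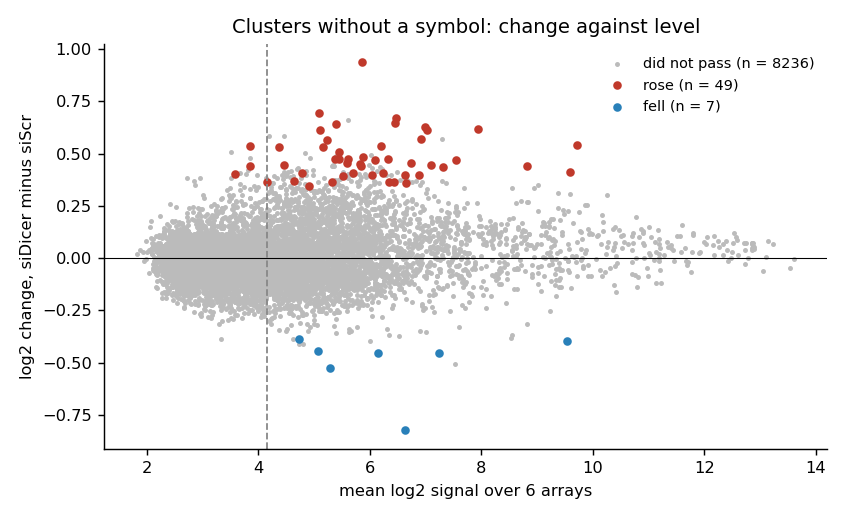
Log2 change, siDicer minus siScr, as the mean of 3 pairs (y axis) against mean log2 signal (x axis) for the 8292 clusters without a symbol, with the gauge dashed. Of the 56 coloured clusters past an adjusted p of 0.05, 53 lie to the right of the gauge, and 49 are rises.

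The largest rise past the threshold was that of TC0100003481. It stood at 6.28, 6.39 and 6.31 in siDicer and at 4.88, 5.64 and 5.64 in siScr. Every siDicer array was above every siScr array, and siScr replicate 1 was apart from its group on the low side. The log2 change was 0.94 ± 0.14 (SE), or 1.91-fold (limma, adjusted p = 0.0476). The cluster numbered directly after it, TC0100003482, is one of the 10 highest, at 13.05, and its change of -0.06 did not pass (adjusted p = 0.61).

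TC0300001334 had 5.44, 5.30 and 5.59 in siDicer and 4.64, 4.63 and 4.97 in siScr. The groups did not overlap, and the change of 0.70 ± 0.06 (SE) was 1.62-fold (adjusted p = 0.0207). The nearest row with a symbol below it in number, 4 places away, was Lef1, which encodes a DNA-binding partner of beta-catenin. Lef1 itself rose by 0.52 (adjusted p = 0.0343), and it was the only such lower neighbour among the 49 rising clusters that passed. This share is like that over all clusters, where 159 of 8284 lower neighbours passed. The 3 clusters numbered between Lef1 and TC0300001334 had changes of 0.12, 0.18 and 0.08, none past the threshold.

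TC0100000511 had 6.52, 7.03 and 6.86 in siDicer against 6.11, 6.30 and 6.00 in siScr, with no overlap and a change of 0.67 ± 0.09 (SE; adjusted p = 0.042). It is numbered 2 places after Nrp2, the neuropilin receptor for semaphorins and VEGF, whose change was 0.06 (adjusted p = 0.692). TC0300000911 had 5.73, 5.80 and 5.60 against 4.81, 5.35 and 5.04 and a change of 0.64 ± 0.10 (SE; adjusted p = 0.0481). It comes directly after Mcl1, a survival protein of the Bcl2 family, which had a change of -0.20 (adjusted p = 0.17). In both cases the cluster rose while the named neighbour did not pass.

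TC0200001843 was the highest in level among the 49 rises. It stood at 10.02, 9.95 and 9.97 in siDicer and at 9.52, 9.45 and 9.35 in siScr. The groups lay far apart compared with their spread, at 9.98 ± 0.03 against 9.44 ± 0.09 (SD, n = 3 each). It rose by 0.54 (adjusted p = 0.0263), and it also passed without the pairing (adjusted p = 0.0246). The other clusters that passed without the pairing were TC0200003476, TC0200000837 and TC0400002751, described below.

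TC0100002872 went from 7.64 ± 0.30 to 8.25 ± 0.18 (SD, n = 3 each) and TC0200000789 from 4.94 ± 0.12 to 5.51 ± 0.27, in each case without overlap of the groups. TC0100003193 had 7.36, 7.64 and 6.93 in siDicer and 6.94, 7.00 and 6.11 in siScr. Here the groups overlapped, since replicate 3 was low in both, and the change of 0.63 was called through the pairs. TC0100000501 rose by 0.53 from 3.59, below the gauge, to 4.12, just under it. Groups overlapped for 6 of the 56 clusters, a share like that over all rows, where it was 16 of the 158 that passed. The 34 rises after the 15 largest had changes from 0.35 to 0.53, and in 31 of them the groups did not overlap.

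Falls were fewer, and all 7 were above the gauge without overlap of the groups. TC0400002751 had 6.28, 6.05 and 6.31 in siDicer and 7.02, 7.00 and 7.09 in siScr. It fell by 0.82 on the log2 scale, with an SE of 0.06, or 1.77-fold (adjusted p = 0.0207; without the pairing, 0.0145). It lies in number between Rpsa-ps11, a ribosomal pseudogene, and Susd1, with changes of 0.13 and -0.06 that did not pass.

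TC0300002505 fell by 0.52, from 5.55 ± 0.11 to 5.03 ± 0.14 (SD, n = 3 each). TC0300001039, numbered next after Sike1, had 7.01, 7.01 and 7.04 in siDicer against 7.48, 7.58 and 7.37 and fell by 0.46. TC0100003319, at 9.34 ± 0.14 against 9.74 ± 0.13, fell by 0.40 at the highest level of the 7. TC0200000226 fell by 0.45, TC0300000225 by 0.44 and TC0200005284 by 0.39. TC0300000225 is numbered between Mfn1, a fusion protein of the mitochondrial outer membrane, and Actl6a, which had changes of 0.28 and -0.21, neither past the threshold. Adjusted p-values of the 7 falls lay between 0.0207 and 0.0486.

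**Figure D3:**
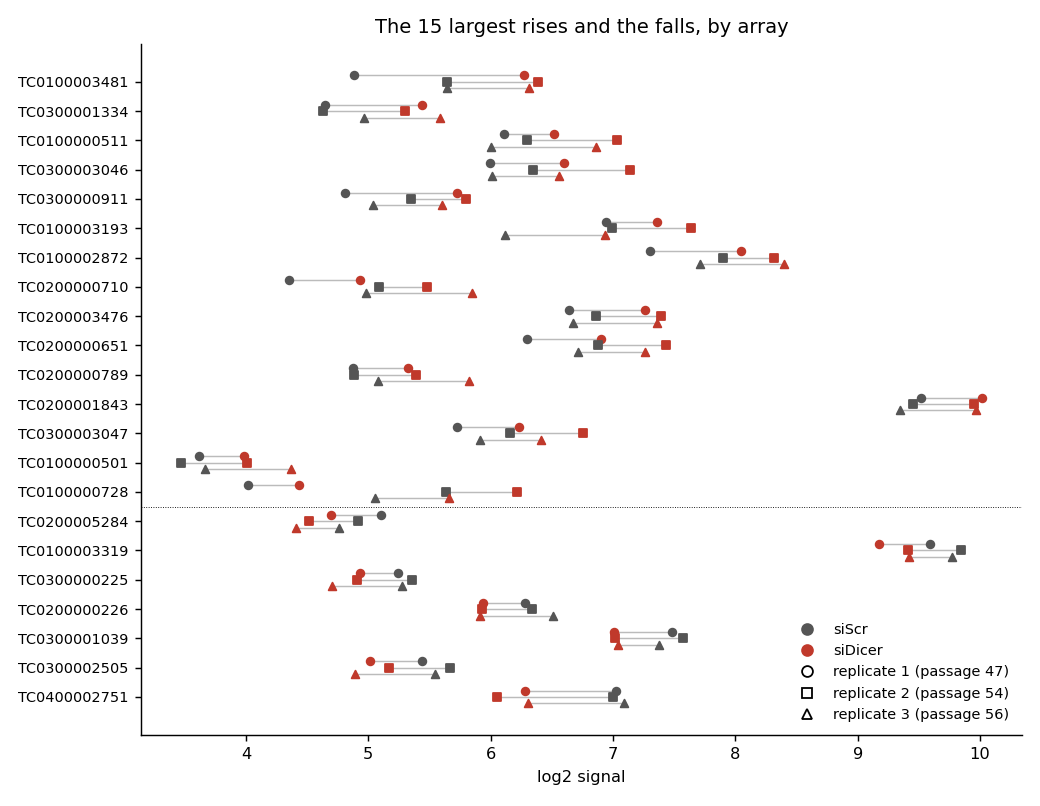
Log2 signal (x axis) of the 15 largest rises and, below the dotted line, the 7 falls (y axis), with siScr in grey and siDicer in red and a line joining the arrays of the same replicate number. In every cluster shown all 3 lines run the same way, while TC0100000728 differs more between passages, from 4.02 to 5.64 in siScr, than between groups.

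The cluster numbers carried information on position. Among the rows with a symbol and a chromosome in the RefSeq gene table, 5344 of 5358 bore the chromosome of their number. Within a strand, 99.4% of 4285 successive named rows followed each other in rising order of gene start. A number next to that of a named gene therefore places a cluster beside or within it in gene order, but it does not make it a product of that gene. Coordinates of the clusters were not used here.

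Clusters numbered after an expressed gene were themselves more often above the gauge. Where the row directly before was a named row above a level of 8, 70.2% of 578 clusters lay above the gauge; where it was at or below the gauge, 33.7% of 890 did. Where the numbers differed by 4 or more, the same shares were 53.7% of 307 and 27.4% of 554. Looking at the next named row after the cluster, the contrast was smaller, 57.5% against 39.1% for directly adjacent rows. Of the 49 rising clusters, 48 had a lower neighbour above the gauge, against 73.0% over all clusters. But 46 of the 49 were themselves above the gauge, against 48.8% of all clusters. The 2 shares therefore compare clusters of unlike level, and they say nothing on rises as such. Numbered directly after the lower neighbour were 15 of the 49, against 3359 of 8284 clusters in all. Of the 7 falling clusters 4 had a lower neighbour above the gauge, and 3 were directly after it.

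Neighbouring clusters tended to change alike. For clusters without a symbol in consecutive rows the log2 changes correlated with r = 0.33 over 4658 pairs of clusters, a description over points that share arrays. At 2 rows r was 0.19, at 3 rows 0.10, and at 10 rows 0.02. With both clusters above the gauge, r for consecutive rows was 0.46 over 1323. When the change of a cluster in one replicate pair was set against that of the next cluster in a different replicate pair, which share no array, r was between 0.12 and 0.19. At 10 rows it was between -0.02 and 0.03. The change of clusters directly after a named row correlated with its change with r = 0.18 over 3359, and those directly before one with r = 0.06 over 3402. Without replicate 2 the r for consecutive rows was 0.26 and without replicate 3 it was 0.24.

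**Figure D4:**
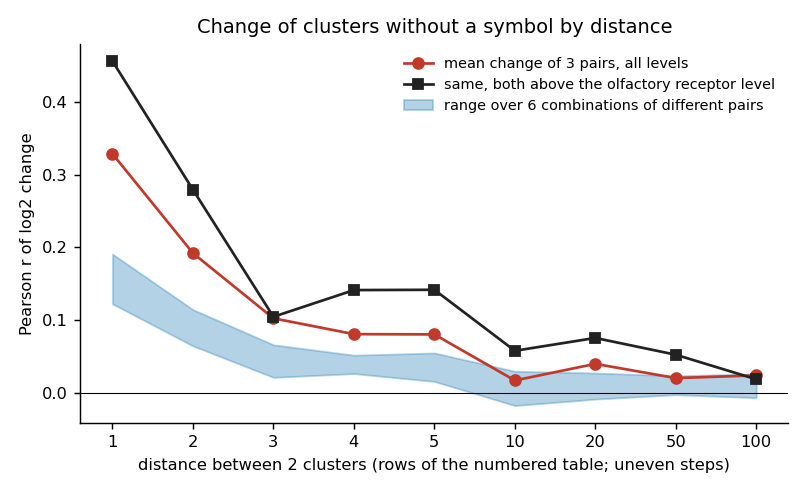
Pearson r of log2 change between clusters without a symbol (y axis) by their distance in rows of the numbered table (x axis, uneven steps), for the mean of 3 pairs in red, for clusters above the gauge in black, and as a blue band over the 6 combinations of different replicate pairs. The red curve drops from 0.33 at a distance of 1 row to 0.02 at 10 rows.

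In 5 places 2 or more clusters with consecutive numbers passed together, 11 clusters in all. Every one of them rose, as did 49 of all 56 clusters that passed. Consecutive calls were not counted over all rows. The places were chosen by the calls of these 11 clusters, which are included in the counts of positive changes given for the places below. Directly after Pdlim5, a PDZ and LIM domain scaffold of the actin cytoskeleton, TC0300003046 had 6.60, 7.14 and 6.56 in siDicer against 6.00, 6.35 and 6.01 in siScr. The next, TC0300003047, had 6.23, 6.76 and 6.41 against 5.73, 6.16 and 5.92. They rose by 0.65 and 0.54 (adjusted p = 0.0239 and 0.026), and neither had overlapping groups. Pdlim5 itself had a change of 0.17 (adjusted p = 0.246). The following TC0300003048 was at 0.32 without passing, and the changes 6 and 7 numbers after Pdlim5 were within 0.01 of 0 in both clusters.

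The stretch with the most clusters past the threshold, though only the first pair of them consecutive, followed Fmnl2, a formin that builds actin filaments. Of the 11 clusters between it and the next named row, 9 had a positive change and 4 passed. The first of them, TC0200000834, had 7.25, 7.23 and 7.50 in siDicer and 6.91, 6.77 and 6.95 in siScr. TC0200000837 had 5.76, 5.90 and 5.89 against 5.30, 5.43 and 5.39, and it rose by 0.48 (adjusted p = 0.0292; without the pairing, 0.0427). TC0200000835 and TC0200000839 each rose by 0.47. Along the run the changes went from 0.45 at the first cluster to 0.18 at the ninth and to -0.14 and -0.24 at the last pair. Fmnl2 had a change of 0.16 (adjusted p = 0.292) at a level of 9.53.

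In the stretch between Gtdc1 and the predicted gene Gm13469, TC0200003476 had 7.26, 7.40 and 7.36 in siDicer against 6.64, 6.86 and 6.67 in siScr. It rose by 0.61 ± 0.06 (SE; adjusted p = 0.0215; without the pairing, 0.0258). The following TC0200003477 and TC0200003478 rose by 0.45 and 0.44. The 5 clusters of this stretch above the gauge all had positive changes, from 0.24 to 0.61. The other 7 lay below the gauge with changes from -0.12 to 0.12. A row with several symbols stands between Gtdc1 and the rising clusters, with a change of -0.07, and Gtdc1 had -0.20; neither passed.

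The remaining places were smaller. After Bcl2l1, the gene of the survival protein Bcl-xL, TC0200004916 rose by 0.48 and TC0200004917 by 0.41, with Bcl2l1 at -0.07. All 4 clusters of that stretch had positive changes. After Mrrf, TC0200000651 and TC0200000652 rose by 0.57 and 0.41, while the 3 clusters before them had changes of 0.07, 0.00 and -0.09. TC0200000651 had 6.90, 7.43 and 7.26 in siDicer and 6.29, 6.88 and 6.71 in siScr.

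**Figure D5:**
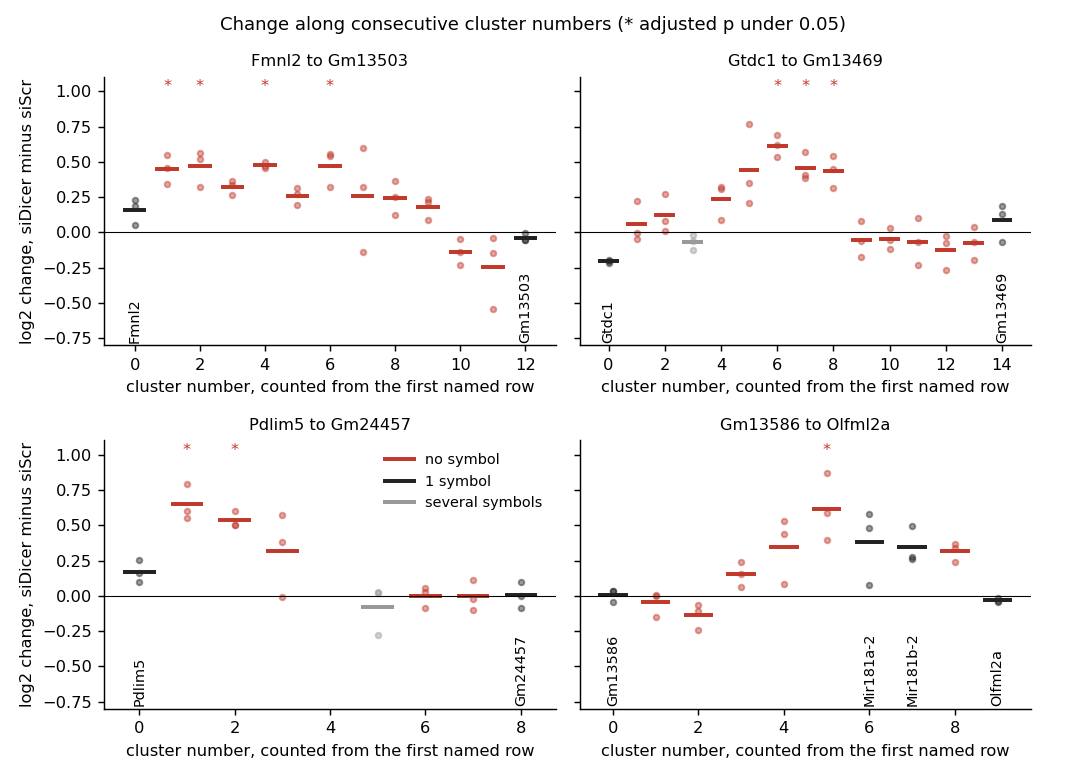
Log2 change, siDicer minus siScr (y axis), along consecutive cluster numbers (x axis) in 4 stretches, with points for the 3 replicate pairs, bars for their mean and an asterisk for an adjusted p under 0.05. In the stretch after Fmnl2, 9 of 11 clusters without a symbol lie above 0, and in the one that holds Mir181a-2 and Mir181b-2 the rows from TC0200000709 to TC0200000713 all do.

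One rising cluster was numbered directly before a microRNA gene. Of 108 clusters next in number to a microRNA gene, 55 were above the gauge and 1 passed, TC0200000710, a share of 0.926% that is close to the 0.974% of all rows. It had 4.93, 5.48 and 5.85 in siDicer and 4.35, 5.09 and 4.98 in siScr, and it rose by 0.62 (adjusted p = 0.0486). The groups overlapped, as siDicer replicate 1 was below 2 of the siScr arrays. Mir181a-2 follows it in number, then Mir181b-2, then TC0200000713. Their changes of 0.38, 0.34 and 0.31 did not pass (adjusted p = 0.167, 0.0914 and 0.0743), but were positive in all 3 pairs. TC0200000709 before them had a change of 0.35 (adjusted p = 0.165). This group of rows was chosen after its values were seen.

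The 4 mature microRNAs of these 2 genes are shown because their 5p arms share a seed, the part that pairs with targets. Sequences are from RefSeq for GRCm38.p6, on the plus strand of chromosome 2, 5′ to 3′, with bases 2 to 8 in capitals.
miR-181a-5p: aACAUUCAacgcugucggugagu
miR-181b-5p: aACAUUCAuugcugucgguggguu
miR-181a-2-3p: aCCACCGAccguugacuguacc
miR-181b-2-3p: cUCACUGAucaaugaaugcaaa
The array rows measure transcripts at the microRNA gene and not these mature forms, which were not analysed here.

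Some clusters differed between replicate numbers alike in both groups. The array of passage 47 lay at least 1 log2 unit from the mean of passages 54 and 56, the same way in both groups, for 5 clusters, all lower at passage 47. No change with siDicer, a mean over 3 pairs, was that large. TC0300003133, numbered directly before the interferon-induced gene Ifi44l, had 6.29, 8.76 and 7.51 in siDicer replicates 1 to 3 and 5.97, 8.89 and 7.05 in siScr. It was highest at passage 54 and lowest at passage 47 in both groups.

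TC0100000729 and TC0100002708 followed the same order. The first had 3.79, 5.47 and 5.08 in siDicer and 3.54, 5.22 and 4.63 in siScr. It is numbered directly after TC0100000728, one of the 15 largest rises, which stands next to Csprs. In that rise the pairs had changes of 0.42, 0.57 and 0.61 around levels that differed by over 1 unit between passages. Without the pairing its adjusted p was 0.746. Csprs followed the order of these clusters, at 5.91, 7.96 and 7.54 in siDicer and 5.92, 7.57 and 6.87 in siScr. Higher at passage 47 in both groups were TC0200003676, by 0.89, TC0300002211, by 0.76, and TC0400002337, by 0.73. Each passage was represented by 1 array per group and equals the replicate number, so passage and other differences between the replicates cannot be told apart.

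The spread between pairs was larger in clusters without a symbol than in named genes of like level. Between levels 6 and 8 the median residual SD was 0.09 against 0.05, and between 8 and 10 it was 0.08 against 0.05. In the first of these bands 3.13% of clusters and 3.63% of named genes passed, and in the second 1.77% and 5.18%. Between the gauge and 6 it was the other way round, with 0.879% of clusters and 0.165% of named genes. The median residual SD there was 0.09 against 0.05. Above a level of 10 none of either class passed. Changes of clusters above the gauge correlated between replicate pairs with r from 0.25 to 0.40, against 0.49 to 0.60 for rows with a symbol above it. Up to the gauge r was 0.07 to 0.08, and among olfactory receptor genes -0.06 to 0.12. These values describe rows that share arrays.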

How the data were processed

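The deposited values are log2 signals per transcript cluster. The submitters' processing notes name Affymetrix Expression Console; its version and the authors' background correction and normalization are not given here. Array medians lay between 4.58 and 4.63. Had the authors scaled the arrays to each other, a shift shared by most transcripts would not be visible. Symbols came from the platform annotation. Rows with identical values within an annotation class were reduced to 1, which left out 167; 2 clusters still equalled a row with a symbol.

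Groups were compared over 16216 rows with limma 3.58.1 in R 4.3.3 (lmFit, eBayes without trend), replicate number as a block and Benjamini-Hochberg adjustment, with a threshold of 0.05. Labels tie each number to a passage. Deviations from group means correlated between same-numbered arrays with r of 0.27, 0.26 and 0.14, and from -0.23 to -0.04 otherwise. Such deviations cancel out within a group, so the negative values follow from the positive ones and add nothing to them. The submitters call the samples biological replicates. The procedure was tested on simulated data. Clusters and lists were chosen with earlier results of these data known. Named clusters are the 10 highest, up to 15 rises and 15 falls by size with all 3 pairs alike, 3 passage differences each way, consecutive clusters that passed together, and nearest named rows. TC0200003534, TC0200000709, TC0200000713, TC0300003048 and neighbours of named clusters were added after their values were seen. Identifiers are given without their common ending. The number of arrays limits the precision.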

Additional observations from a re-analysis of the deposited data

How the results depend on the processing

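Of 8292 clusters without a symbol, 56 passed and 10 of these by at least 1.5-fold. Without the replicate block these counts were 4 and 2, with quantile normalization 18 and 3, with cyclic loess 23 and 6, and with a plain paired statistic 0 and 0 (693 at an unadjusted p under 0.05). Passing clusters numbered 89 with an intensity trend, 37 with robust eBayes (an alternative chosen after seeing the data), 142 at a threshold of 0.1, and, with fewer rows tested, 99 above the gauge and 130 above the median level. Leaving out 1 replicate number gave 0 to 68, and 0 to 20 at least 1.5-fold. The counts over all rows moved the same way. From 158 they went to 37 without the block, 75 with quantile normalization, 87 with cyclic loess and 0 with the plain paired statistic. With an intensity trend the count was 302, with robust eBayes 126 and at a threshold of 0.1 it was 376. Restricted by level it was 288 above the gauge and 380 above the median, and without 1 replicate 0 to 135. Of 29 named rises and falls none turned in direction in the 15 alternatives (1 lay outside the tables restricted by level). Only quantile normalization, centring and cyclic loess could have turned them, since all replicate pairs of each named cluster had the same sign. The call was lost by 26 without the block, 17 after quantile normalization, 15 after cyclic loess and 6 with robust eBayes. It was lost by 8 without replicate 1, and by all 29 without replicate 2, without replicate 3 or in the plain paired statistic. The median change was 0.0062 after centring, 0.0107 after cyclic loess and 0.0073 above the gauge, and -0.0136 to 0.0011 without 1 replicate. The share above the gauge was 47.4% with vomeronasal receptors added, 62.1% at the 90th and 27.1% at the 99th percentile of olfactory receptors. For consecutive rows, alternatives chosen after seeing the data gave an r of 0.457 above the gauge and 0.238 to 0.31 without 1 replicate. Causes were not tested unless named. At 3 arrays a group, changes below about the gauge were rarely called: 3 of the 56 lay there.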
